A study of Mus musculus with 12 samples.

Results

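The genes of the tuberous sclerosis complex (TSC) and of the mTOR complexes were followed in mouse inner medullary collecting duct (mIMCD3) cells with and without the polycystin genes. The set holds 10 genes, chosen by name as the core of this pathway: Tsc1, Tsc2, Mtor, Rptor, Rictor, Rheb, Mlst8, Deptor, Akt1s1 and Ddit4. They are 10 of the 47642 genes in the table, and all 10 are among the 18552 genes that were tested, whose normalized counts averaged 1 or more.

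The mTOR kinase works in a pair of complexes that share the subunit encoded by Mlst8 and the inhibitor encoded by Deptor. mTOR complex 1 (mTORC1) contains Raptor, encoded by Rptor, and PRAS40, encoded by Akt1s1, and drives protein synthesis and growth when the small GTPase Rheb is loaded with GTP, while complex 2 (mTORC2) is built around Rictor and phosphorylates Akt and SGK kinases. The products of Tsc1 and Tsc2 switch Rheb off, and REDD1, encoded by Ddit4, acts through them to lower mTORC1 activity under stress. In the kidney, loss of TSC genes causes cysts, and Tsc2 is the direct neighbour of Pkd1 on the chromosome, so that both can be lost in a single deletion. Much of the control in this pathway is by protein modification, which RNA sequencing does not measure.

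The study asked which transcripts depend on Pkd1 and Pkd2 in renal tubular cells. RNA was sequenced from 12 cultures, 4 of each of 3 genotypes: wild-type mIMCD3 cells (Wt), Pkd1-/- cells and Pkd2-/- cells. mIMCD3 is a line derived from the kidney of mice that carry the SV40 early region, and this transgene is shared by all groups. The cells grew in DMEM-F12 medium with serum and were harvested 4 days after they became confluent. In Pkd1-/- cells 1 allele lacks chr17:24550055-24594963 and the other chr17:24550106-24594903, made with CRISPR/Cas9. In Pkd2-/- cells, edited with TALENs, chr5:104478281-104490878 is missing (positions in GRCm38). Each mutant is 1 clone, and the 4 libraries of a genotype are different dishes of that line, 4 of 6 dishes grown, so the tests below measure the spread between dishes. An effect of the lost gene and a peculiarity of the clone cannot be told apart.

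The values are read counts per gene that the authors divided by a size factor per library and rounded. The spacing of the values implies about 23194317 gene-assigned reads for the shallowest library and 30335543 for the deepest. Pkd1 fell from a mean of 782 in Wt to 41.8 in Pkd1-/- cells (log2 fold change -4.21, limma adjusted p = 1.47e-13), where 90.4% of its annotated exon bases lie within the longer deletion. Pkd2 stood at 3971 in Wt and 3986 in Pkd2-/- cells, but that deletion removes only 14.7% of the exon bases of Pkd2, so its count does not check the label. The paper reported that the deleted Pkd2 exons had no counts in these cells and that the protein was lost by Western blot. Of the collecting duct markers, Krt8, Krt18, Cdh1, Epcam, Cdh16, Pax2, Pax8 and Hoxb7 were between 1602 and 23947 normalized counts in every Wt library, whereas the water channels Aqp2 and Aqp4 were at 0 in all 12 libraries and Aqp3, Avpr2 and Slc14a2 at or near 0. Gata3, a collecting duct transcription factor, had means of 227 in Wt, 48.5 in Pkd1-/- and 354 in Pkd2-/- cells, and Scnn1a, a subunit of the epithelial sodium channel, of 75.5, 80.5 and 120. Of 12 markers of other kidney cells, only Lrp2, the proximal tubule receptor megalin, exceeded 31 in any library, with 474 to 555 in Wt, 25 to 63 in Pkd1-/- and 738 to 1217 in Pkd2-/- libraries.

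Tsc1 and Rheb changed most clearly against Wt, and the promoter of Ddit4 is the stress-inducible one of the set, so their upstream sequences are shown. RefSeq promoter windows (GRCm38.p6, 250 bases before to 50 after the start) were found for 9 of the 10 genes, all but Deptor. The first lines give the bases upstream of the annotated starts, chr2:28640983-28641227 on the plus strand for Tsc1 and chr10:59951835-59952020 on the minus strand for Ddit4. The Rheb line is a stretch of 28 bases, chr5:24842441-24842468 on the minus strand. Capitals mark ACGTG in Ddit4, the core of a hypoxia response element, and CACGTG in Rheb, the E-box to which MYC and TFEB family factors bind.
Tsc1: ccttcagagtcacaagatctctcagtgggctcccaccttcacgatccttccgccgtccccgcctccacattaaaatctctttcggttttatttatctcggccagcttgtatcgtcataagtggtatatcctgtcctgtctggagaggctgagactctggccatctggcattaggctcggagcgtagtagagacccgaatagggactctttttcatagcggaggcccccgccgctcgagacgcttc
Ddit4: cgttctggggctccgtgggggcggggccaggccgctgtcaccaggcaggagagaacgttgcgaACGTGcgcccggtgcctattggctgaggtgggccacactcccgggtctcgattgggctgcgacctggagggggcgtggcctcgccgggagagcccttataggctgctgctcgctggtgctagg
Rheb: ccgcgcgcggtCACGTGggtgtgttgtt
With both strands searched, CACGTG was present in 1 of the 9 windows, that of Rheb, and in 7.15% of all 32851 RefSeq windows of this length. The shorter ACGTG, which every CACGTG also contains, was present in those of Ddit4, Rheb and Rptor and in 19.6% of all windows. Neither motif is in the Tsc1 window.

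Of the 10 genes, only Rheb passed the test between Pkd1-/- and Wt cells, where it was lower (limma, Benjamini-Hochberg adjusted p under 0.05), while 27.1% of all tested genes passed in that comparison, 13.6% higher and 13.5% lower. Against Wt, 5 of the 10 passed in Pkd2-/- cells, at a background of 42.3%. Of these, 4 were higher (Tsc1, Mtor, Deptor and Ddit4; background 20.0%) and Mlst8 was lower (background 22.3%). Between the mutants, 6 of the 10 passed, at a background of 46.3%, with Tsc1, Rptor, Rictor, Rheb and Deptor higher (background 21.9%) and Mlst8 lower (background 24.3%) in Pkd2-/- than in Pkd1-/- cells. The shares of the set called were thus below the background in the first comparison and near it in the other two. These backgrounds include genes at far lower counts than the set, and no share among genes of like level was taken. None of the 10 reached a log2 fold change of 1 in any comparison, a size passed together with the test by 6.24%, 9.62% and 11.8% of all genes, respectively. The median log2 fold change of the set was -0.01 in Pkd1-/- and 0.15 in Pkd2-/- cells, and that of all tested genes was 0.01 and -0.01. These medians keep the trends over length and GC content. With those trends removed from each library, Tsc1 (0.55), Deptor (0.35), Ddit4 (0.29) and Mtor (0.08) were positive in Pkd2-/- against Wt. Negative there were Tsc2 (-0.03), Rptor (-0.08), Rictor (-0.01), Rheb (-0.14), Mlst8 (-0.16) and Akt1s1 (-0.05). For Pkd1-/- against Wt the count of genes called was 2 without Wt replicate 2 or Pkd1-/- replicate 4, and for Pkd2-/- against Wt it was 3 without Pkd2-/- replicate 2 or replicate 4. Both comparisons with Wt use the same Wt libraries.

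**Figure D1:**
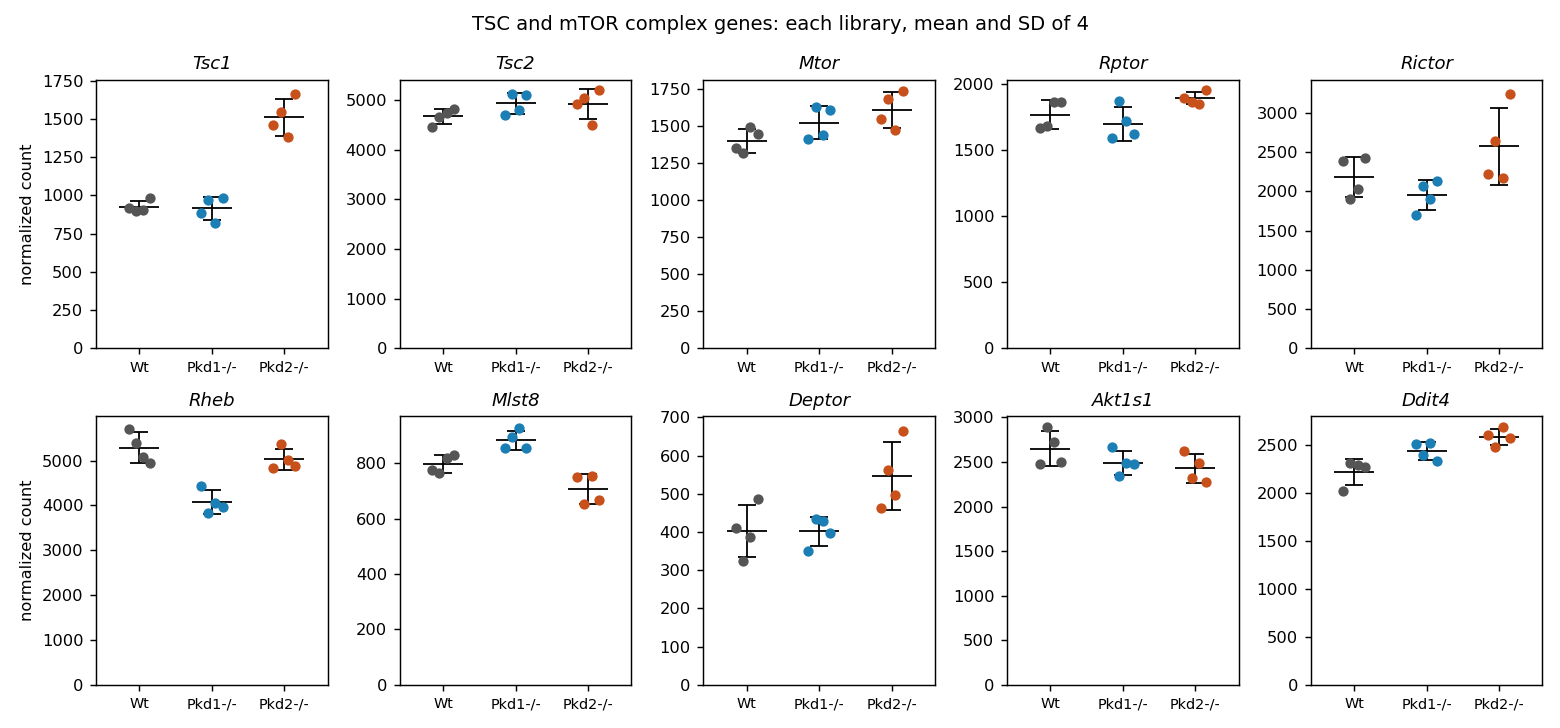
Normalized counts (vertical axes, from 0) of the 10 genes in each of the 12 libraries, with the mean and SD of 4 libraries per genotype (horizontal axes: Wt, Pkd1-/-, Pkd2-/-). Tsc1 stands apart in Pkd2-/- (1382 to 1664, against at most 981 elsewhere) and Rheb in Pkd1-/- (3842 to 4445, against at least 4843 elsewhere).

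Tsc1 (ENSMUSG00000026812.16, chr2:28641228-28691167, plus strand) encodes hamartin, the scaffold that stabilises the TSC. Its normalized counts were 919, 897, 907 and 981 in Wt, 886, 969, 822 and 980 in Pkd1-/-, and 1460, 1546, 1382 and 1664 in Pkd2-/- libraries. All 4 Pkd2-/- libraries lay above the other 8, and Wt and Pkd1-/- overlapped. Tsc1 was 1.63-fold higher in Pkd2-/- than in Wt cells (log2 fold change 0.71, SE 0.07, limma adjusted p = 9.14e-08; exact permutation p = 0.0286, the smallest that 4 against 4 libraries can give). It was higher by the same measure than in Pkd1-/- cells (log2 fold change 0.73, limma adjusted p = 4.66e-08), whereas Pkd1-/- against Wt did not pass (-0.02, 95% confidence interval -0.16 to 0.12). In these bulk libraries, more transcript in every cell and more cells with high levels cannot be told apart.

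Tsc2 (ENSMUSG00000002496.9, chr17:24595816-24632630, minus strand) encodes tuberin, the GTPase-activating partner of hamartin. Its 3′ end overlaps that of Pkd1 on the opposite strand by 693 bases. The longer deletion ends 852 bases before Tsc2 and removes 0 of its 9620 exon bases. The counts of Tsc2 were 4469, 4659, 4748 and 4824 in Wt, 4712, 5118, 4808 and 5108 in Pkd1-/-, and 4921, 5040, 4502 and 5208 in Pkd2-/- libraries. The 3 groups overlapped. Against Wt, Tsc2 had a log2 fold change of 0.08 in Pkd1-/- (95% confidence interval -0.03 to 0.18, limma adjusted p = 0.284) and 0.07 in Pkd2-/- cells (-0.03 to 0.18, adjusted p = 0.278). Reads from the overlap cannot be assigned without strand, and whether counting used strand is not given in the sources used here, but the overlap is 7.20% of the exon bases of Tsc2. At its 5′ end Tsc2 lies head to head with the DNA repair gene Nthl1, with 49 bases between their annotated starts (chr17:24632631-24632679, read on the Tsc2 strand; shown as the whole shared upstream interval).
Tsc2 to Nthl1: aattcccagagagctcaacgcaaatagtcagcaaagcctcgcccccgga
Nthl1 also did not pass in either mutant, with means of 427 in Wt, 458 in Pkd1-/- and 452 in Pkd2-/- cells.

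Rheb (ENSMUSG00000028945.9, chr5:24802823-24842624, minus strand) encodes the GTPase that the TSC turns off and that activates mTORC1. It was at 5717, 5397, 5079 and 4946 in Wt, 4445, 3842, 4056 and 3975 in Pkd1-/-, and 4843, 5374, 5015 and 4881 in Pkd2-/- libraries. All 4 Pkd1-/- libraries lay below the other 8. Rheb was at 77.2% of its Wt mean in Pkd1-/- cells (log2 fold change -0.37, SE 0.06, limma adjusted p = 4.36e-05; exact permutation p = 0.0286). Against Wt, its log2 fold change in Pkd2-/- cells was -0.07 (95% confidence interval -0.19 to 0.05), and the mutants differed from each other by 0.30 (adjusted p = 0.000176).

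**Figure D2:**
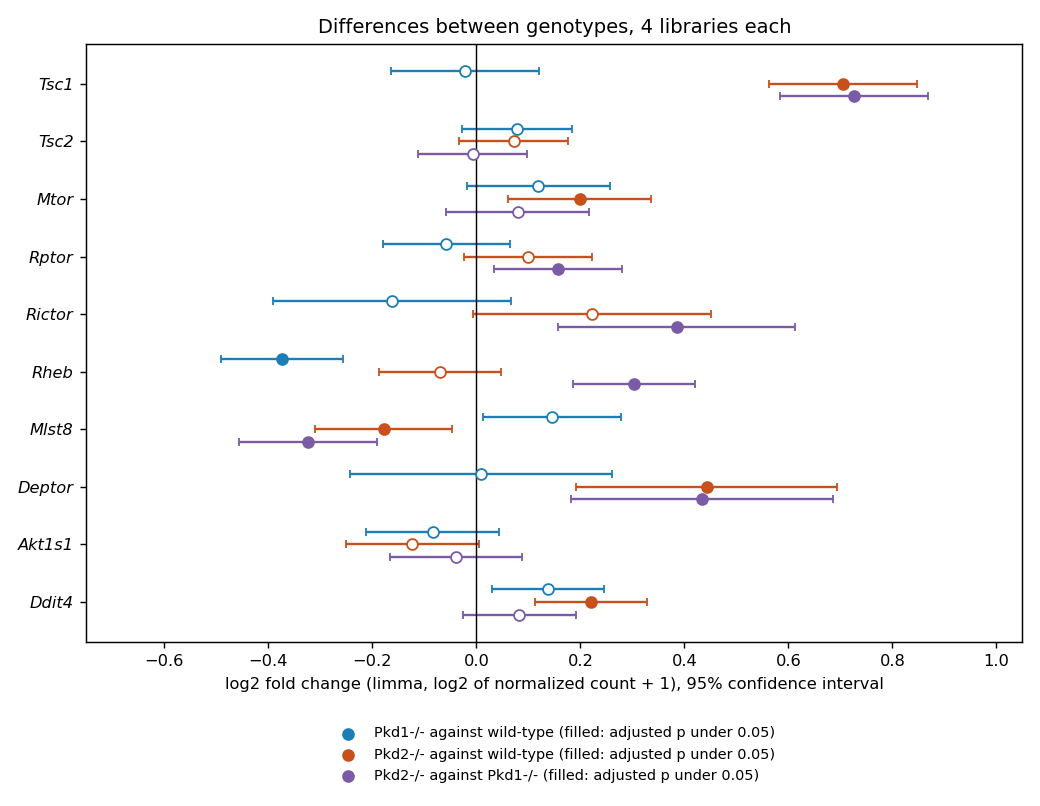
Log2 fold change (horizontal axis) of each of the 10 genes (vertical axis) in the 3 comparisons, with 95% confidence intervals from limma. Filled points passed at an adjusted p under 0.05. Tsc1 at 0.71 and Deptor at 0.44 are farthest from 0 in Pkd2-/- against Wt, and Rheb at -0.37 in Pkd1-/- against Wt.

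The changes of Tsc1 and Rheb were read beside those of the genes around them, using genes that averaged 10 or more normalized counts. Chromosome 2, which carries Tsc1, had the highest median log2 fold change of all chromosomes in Pkd2-/- cells, 0.33 over 1058 genes, with 78.3% of them above 0. Chromosome 19 followed at 0.28, and the other chromosomes lay between -0.08 and 0.04. Of the 171 genes within 5 Mb of Tsc1, 146 were above 0 in Pkd2-/- cells and their median was 0.39. Tsc1 exceeded the median of its chromosome by 0.37. The same 171 genes had a median of 0.07 in Pkd1-/- cells.

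In the other mutant, Rheb lay among neighbours with lower values. Chromosome 5 had the lowest median of all chromosomes in Pkd1-/- cells, -0.18 over 923 genes, with 39.3% of them above 0. On chromosome 3 the share above 0 was lower still, 33.9%, at a median of -0.09. The 67 genes within 5 Mb of Rheb had a median of -0.35, with 11 of them above 0. Rheb itself, at -0.37, was close to that median. These 67 genes had a median of -0.02 in Pkd2-/- cells, where Rheb did not pass. Pkd2 lies on chromosome 5 as well, but far from Rheb, at chr5:104459450-104505819. It was at 2711 in Pkd1-/- against 3971 in Wt cells (log2 fold change -0.54), and its own neighbours were not examined. The paper reported this decrease and proposes a feedback loop between transcription of Pkd1 and of Pkd2. For the other 8 genes, the medians of the neighbours within 5 Mb ranged from -0.04 to 0.07 in Pkd1-/- cells. Deptor stood in Pkd2-/- cells at 0.44 against -0.01 for its neighbours and Ddit4 at 0.22 against -0.16. The paper reported normal ploidy in all lines from DNA content by flow cytometry, a measure of total DNA. The number of copies of these single chromosomes was not reported, and its part in the levels of Tsc1 and Rheb was not tested.

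**Figure D3:**
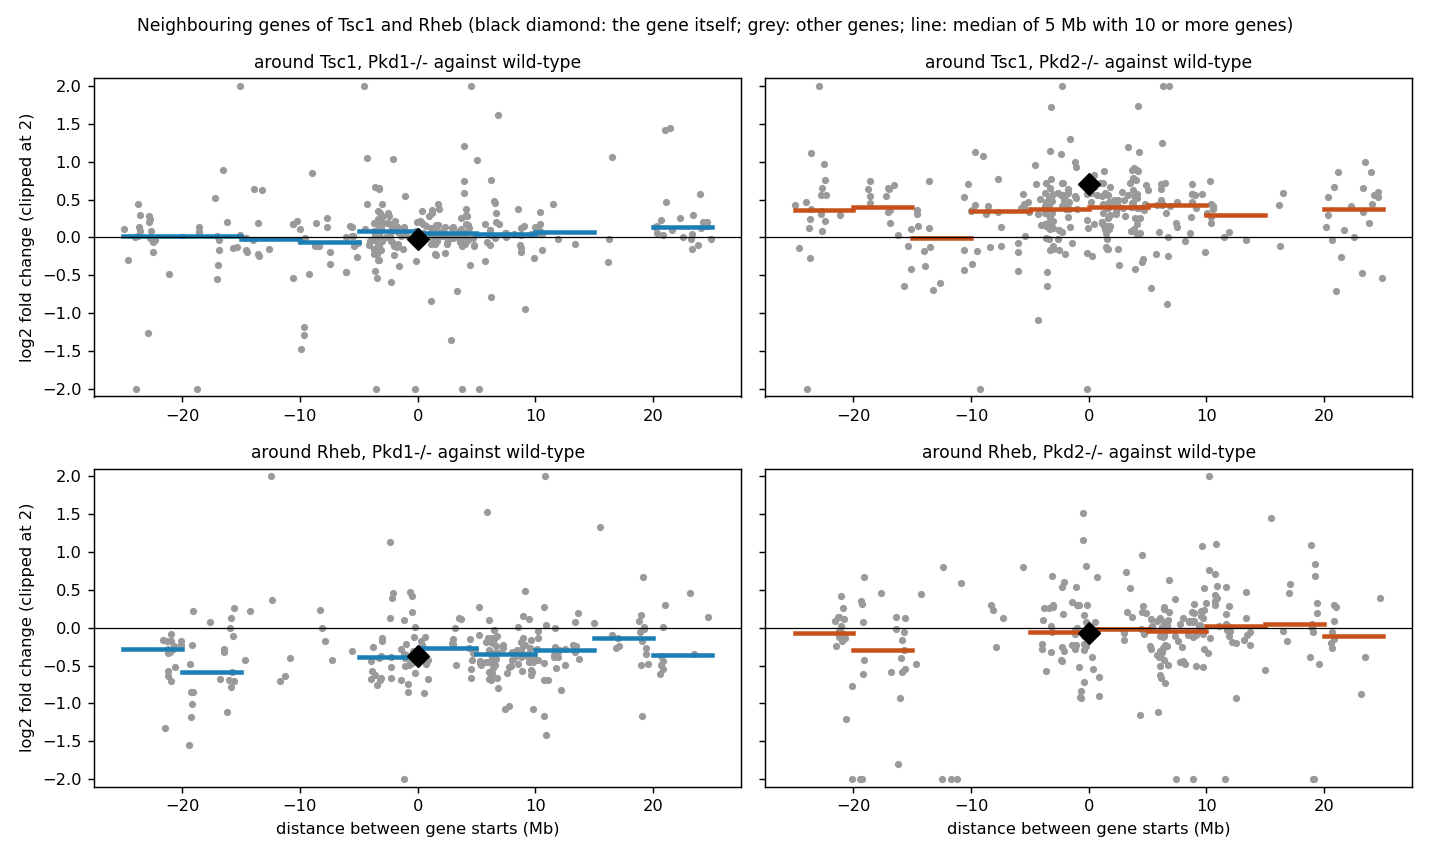
Log2 fold change (vertical axis, values beyond 2 drawn at 2) of genes around Tsc1 (top) and Rheb (bottom) by the distance between gene starts in Mb (horizontal axis), for Pkd1-/- (left) and Pkd2-/- (right) against Wt. Black diamonds mark Tsc1 and Rheb, grey points other genes, and lines the medians of 5 Mb bins with 10 or more genes. Around Tsc1 the bins lie between 0.30 and 0.43 in Pkd2-/- cells, except for a bin of 14 genes at -0.01, and around Rheb between -0.58 and -0.14 in Pkd1-/- cells.

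Mtor (ENSMUSG00000028991.15, chr4:148448611-148557683, plus strand), the kinase itself, was at 1351, 1314, 1491 and 1442 in Wt, 1412, 1630, 1439 and 1605 in Pkd1-/-, and 1543, 1678, 1473 and 1737 in Pkd2-/- libraries. The ranges of the genotypes overlapped. Mtor was higher in Pkd2-/- than in Wt cells by 0.20 on the log2 scale (limma adjusted p = 0.0197), and in Pkd1-/- cells it was at 0.12 (adjusted p = 0.203). The call in Pkd2-/- cells was lost without Wt replicate 1, Wt replicate 2, Pkd2-/- replicate 2 or Pkd2-/- replicate 4 (adjusted p from 0.0536 to 0.0668), and with libraries rescaled to their upper quartiles (0.15, adjusted p = 0.0955).

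Mlst8 (ENSMUSG00000024142.14, chr17:24473551-24479078, minus strand), the subunit that both mTOR complexes share, is the other gene of the set near Pkd1, 70976 bases from the deletion. Its values were 775, 766, 819 and 831 in Wt, 854, 894, 927 and 855 in Pkd1-/-, and 751, 654, 753 and 666 in Pkd2-/- libraries. The 3 genotypes did not overlap, with Pkd1-/- highest and Pkd2-/- lowest. Mlst8 was lower in Pkd2-/- than in Pkd1-/- cells (log2 fold change -0.32, SE 0.06, limma adjusted p = 0.000288). It was lower than in Wt cells by a smaller step (-0.18, adjusted p = 0.0285), a call that was lost without Wt replicate 3, Wt replicate 4, Pkd2-/- replicate 2 or Pkd2-/- replicate 4 (adjusted p from 0.0725 to 0.102). Its log2 fold change in Pkd1-/- cells was 0.15 (adjusted p = 0.0982). The gene Bricd5 lies wholly within the exons of Mlst8 on the opposite strand, where it covers 22.5% of the exon bases, and was listed at 0 in every library.

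Deptor (ENSMUSG00000022419.15, chr15:55112317-55259271, plus strand), whose product binds mTOR and restrains both complexes, was at 410, 325, 388 and 487 in Wt, 350, 433, 428 and 398 in Pkd1-/-, and 464, 562, 497 and 665 in Pkd2-/- libraries. The Pkd2-/- libraries lay above all Pkd1-/- libraries and overlapped the highest Wt library. Deptor was 1.36-fold higher in Pkd2-/- than in Wt cells (log2 fold change 0.44, SE 0.12, limma adjusted p = 0.00551; exact permutation p = 0.0571). It was 0.01 in Pkd1-/- cells, with an interval from -0.24 to 0.26.

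Of the subunits particular to mTORC1, neither passed against Wt in either mutant. Rptor (ENSMUSG00000025583.15, chr11:119602905-119899576, plus strand), which recruits substrates, was at 1665, 1678, 1862 and 1864 in Wt, 1589, 1873, 1716 and 1617 in Pkd1-/-, and 1896, 1865, 1850 and 1953 in Pkd2-/- libraries. The Pkd2-/- libraries lay close together, from 1850 to 1953, where the highest Wt library was at 1864. Against Wt it stood at -0.06 in Pkd1-/- and 0.10 in Pkd2-/- cells on the log2 scale (limma adjusted p = 0.190). Between the mutants the difference was 0.16 (adjusted p = 0.0338), a call lost without Pkd1-/- replicate 1, 3 or 4 or Pkd2-/- replicate 1, 2 or 4 (adjusted p from 0.0519 to 0.107). This call of Rptor was also lost with upper-quartile rescaling (0.09, limma adjusted p = 0.247), and with length and GC trends removed the difference was 0.01 (adjusted p = 0.933). Akt1s1 (ENSMUSG00000011096.17, chr7:44848991-44855421, plus strand), whose product PRAS40 inhibits mTORC1, was at 2478, 2892, 2719 and 2497 in Wt, 2670, 2342, 2484 and 2480 in Pkd1-/-, and 2628, 2322, 2488 and 2276 in Pkd2-/- libraries. The genotypes overlapped, with log2 fold changes of -0.08 (95% confidence interval -0.21 to 0.04) and -0.12 (-0.25 to 0.00).

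Rictor (ENSMUSG00000050310.8, chr15:6708379-6800401, plus strand), the scaffold of mTORC2, had the widest spread of the set in Pkd2-/- cells, with 2222, 2646, 2177 and 3248, beside 2387, 1907, 2032 and 2424 in Wt and 1703, 2069, 1900 and 2135 in Pkd1-/- libraries. Replicate 4 of Pkd2-/- was the highest of the 12. Rictor was higher in Pkd2-/- than in Pkd1-/- cells (log2 fold change 0.38, SE 0.11, limma adjusted p = 0.00676), and neither mutant passed against Wt (-0.16, adjusted p = 0.310, and 0.22, adjusted p = 0.113). Replicate 4 of Pkd2-/- was also the library in which long transcripts stood highest relative to the rest of its genotype. The median level of genes with at least 10000 exon bases relative to genes with at most 2000, as a log2 deviation from the genotype mean, was -0.12, 0.03, -0.17 and 0.25 in the Pkd2-/- libraries and between -0.18 and 0.15 in the others. Replicate 4 was the highest by this measure in Wt (0.15) and Pkd1-/- cells (0.12) as well. Rictor has 16930 annotated exon bases, more than any other gene of the set. With trends over length and GC content removed from each library, the log2 fold change of Rictor between the mutants was 0.13 (limma adjusted p = 0.0365). Against Wt in Pkd2-/- cells, Rictor was then at -0.01, and Mtor, with 10109 exon bases, at 0.08 (limma adjusted p = 0.168). Tsc1 remained at 0.55 and Deptor at 0.35, both past the threshold.

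Ddit4 (ENSMUSG00000020108.3, chr10:59949669-59951834, minus strand), the stress-induced inhibitor of mTORC1, was at 2018, 2309, 2283 and 2263 in Wt, 2504, 2394, 2522 and 2328 in Pkd1-/-, and 2599, 2474, 2679 and 2572 in Pkd2-/- libraries. Every mutant library exceeded every Wt library. Ddit4 was 1.16-fold higher in Pkd2-/- than in Wt cells (log2 fold change 0.22, SE 0.05, limma adjusted p = 0.00175). Its log2 fold change of 0.14 in Pkd1-/- cells gave an adjusted p of 0.0560 by limma, with an exact permutation p of 0.0286, and it passed without Wt replicate 2 (adjusted p = 0.0462) or Pkd1-/- replicate 4 (adjusted p = 0.0468). Groups that did not overlap were found for 3 of the 10 genes in Pkd1-/- against Wt (Rheb, Mlst8 and Ddit4), at a background of 27.1% of all genes, and for 3 in Pkd2-/- against Wt (Tsc1, Mlst8 and Ddit4), at a background of 37.2%.

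Per kilobase of annotated exon, the only scale on which levels of different genes are compared here, the genes of the set differed widely in Wt cells. The length is that of the merged exons of all annotated transcripts of a gene. It can exceed that of the transcript made in these cells, so the order depends on the annotation too. The ranges show the spread of libraries, not the uncertainty of this length. Ddit4 led at 1264 normalized counts per kilobase, followed by Akt1s1 at 861, Rheb at 684, Tsc2 at 486 and Mlst8 at 180, with no overlap between neighbours in this order. Mtor at 138, Rptor at 131 and Rictor at 129 followed, and their ranges overlapped from one to the next. The lowest were Tsc1 at 78.3 ± 3.19 (SD, n = 4) and Deptor at 45.4 ± 7.53. The transcript of Tsc1 was thus below that of its partner Tsc2 in level per kilobase. Tsc1 rose to 128 ± 10.2 in Pkd2-/- cells, where its range overlapped that of Rptor.

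For the 3 genes with the largest change against Wt in either mutant, the genes with the most similar pattern over the 12 libraries were taken from the 11398 genes that averaged 50 or more normalized counts. Nearest to Tsc1 were Sptan1 (Pearson r = 0.988), Ubr3 (0.987) and Itprid2 (0.986), which are likewise genes of chromosome 2. Nearest to Deptor were Naaladl2 (0.968), Pikfyve (0.966) and Zfp148 (0.962), and nearest to Rheb were Rchy1 (0.958), Ube2d3 (0.955) and Id2 (0.953). These libraries share their genotype, so the values describe likeness only.

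Around the Pkd1 deletion, 13 of 17 annotated genes within 100 kb were tested besides Pkd1 itself. Of these, 4 rose in Pkd1-/- cells (Pgp, Traf7, Slc9a3r2 and Zfp598) and 0 fell, with log2 fold changes from 0.12 to 0.29, at backgrounds of 13.6% higher and 13.5% lower. Where this stretch is intact, in Pkd2-/- cells, Pgp, Zfp598 and Gfer rose, and Mlst8 and Syngr3 (-1.45, limma adjusted p = 2.51e-09) fell, at backgrounds of 20.0% higher and 22.3% lower. Tsc2 and Mlst8, at 0.08 and 0.15 in Pkd1-/- cells, did not pass there.

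Beyond the 10 genes, 92 further genes of the pathway were read in 5 lists. Of these, 43 passed in Pkd1-/- against Wt (23 higher, 20 lower; 46.7%, background 27.1%, of which 13.6% higher) and 57 in Pkd2-/- against Wt (30 higher, 27 lower; 62.0%, background 42.3%). By list, the share called in Pkd1-/- cells ran from 29.4% of the upstream kinases to 64.7% of the mTORC1-responsive transcripts, and in Pkd2-/- cells from 35.3% to 82.4% of these same lists. The backgrounds cover all tested genes, down to a mean of 1 normalized count, and no share among genes of like level was taken. These shares therefore cannot be read as an excess over genes of the same level.

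**Figure D4:**
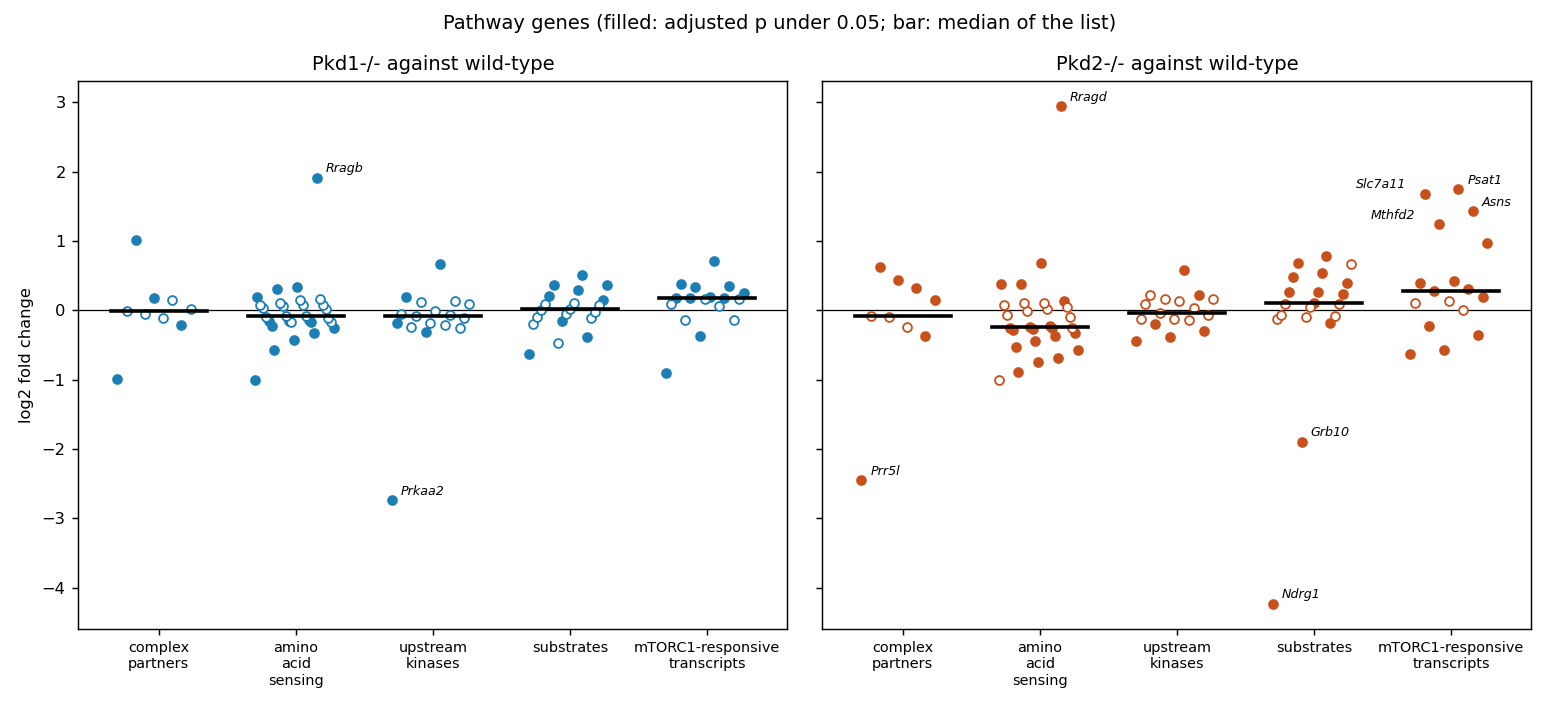
Log2 fold changes (vertical axis) of the 92 further pathway genes in 5 lists (horizontal axis), for Pkd1-/- (left) and Pkd2-/- (right) against Wt. Filled points passed at an adjusted p under 0.05, bars are list medians, and called genes beyond 1.2 are named. The median of the mTORC1-responsive transcripts is 0.18 on the left and 0.28 on the right, and that of the amino acid sensing genes -0.09 and -0.24.

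Among 9 genes for complex partners, 2 rose and 2 fell in Pkd1-/- and 4 rose and 2 fell in Pkd2-/- cells. Of all tested genes, 13.6% rose and 13.5% fell in Pkd1-/-, and 20.0% rose and 22.3% fell in Pkd2-/- cells. Prr5l, whose product binds mTORC2, was at 120, 97, 124 and 90 in Wt, 58, 45, 71 and 43 in Pkd1-/-, and 20, 19, 23 and 14 in Pkd2-/- libraries, 3 ranges without overlap (log2 fold changes -0.99 and -2.45, limma adjusted p = 0.00109 and 1.37e-08). Ddit4l, the relative of Ddit4, rose from a mean of 281 to 572 in Pkd1-/- and 433 in Pkd2-/- cells (1.02 and 0.62). Tbc1d7, the third subunit of the TSC, fell from 486 to 375 in Pkd2-/- cells (-0.37, adjusted p = 0.00351), in the direction opposite to Tsc1. Mapkap1, which encodes the mTORC2 subunit SIN1, rose by 0.17 and 0.43 on the log2 scale, and Tti1, part of the chaperone system that folds mTOR, was at 0.32 in Pkd2-/- cells. Both lie on chromosome 2, where their neighbours within 5 Mb had medians of 0.41 and 0.29 in Pkd2-/- cells. Tti2 fell by 0.21 in Pkd1-/- and rose by 0.15 in Pkd2-/- cells, the latter a call lost without Wt replicate 3 or 4 or Pkd2-/- replicate 1 or 3 (limma adjusted p from 0.0705 to 0.0842).

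The amino acid sensing list, with the Rag GTPases, the Ragulator, GATOR and KICSTOR complexes and the Sestrin and Castor sensors, had 29 genes. Of these, 4 rose and 10 fell in Pkd1-/- (backgrounds 13.6% and 13.5%) and 5 rose and 14 fell in Pkd2-/- cells (backgrounds 20.0% and 22.3%). Rragd, a Rag GTPase induced by TFEB family factors, was at 53, 56, 52 and 69 in Wt, 30, 46, 33 and 46 in Pkd1-/-, and 451, 485, 440 and 415 in Pkd2-/- libraries. It rose by 2.95 in Pkd2-/- and fell by 0.57 in Pkd1-/- cells on the log2 scale (limma adjusted p = 1.49e-11 and 0.00812). Sesn2, the leucine sensor Sestrin2, was at 1158, 1278, 1261 and 1293 in Wt, 640, 630, 640 and 587 in Pkd1-/-, and 1611, 1508, 1659 and 1696 in Pkd2-/- libraries, 3 ranges without overlap. It fell by 1.00 on the log2 scale in Pkd1-/- cells and rose by 0.38 in Pkd2-/- cells (limma adjusted p = 1.41e-10 and 2.52e-05). Castor1, an arginine sensor, fell in both (-0.43 and -0.89), whereas Sesn3 (-0.74), the GATOR2 gene Wdr59 (-0.69) and all 5 Ragulator genes Lamtor1 to Lamtor5 (-0.24 to -0.53) fell in Pkd2-/- cells. Fnip1, a partner of folliculin, rose by 0.69 there. Of the Ragulator genes in Pkd1-/- cells, Lamtor4 rose (0.33, limma adjusted p = 0.002) and Lamtor5 fell (-0.16, limma adjusted p = 0.0419). Lamtor1, Lamtor2 and Lamtor3 did not pass in Pkd1-/- cells. The 5 Ragulator genes have 884 to 4151 exon bases, and no values with length and GC trends removed are given for them. Rragb, named after its values were seen, was above 3 normalized counts only in Pkd1-/- libraries (15, 4, 7 and 4), and at this level its value is uncertain beside its close relative Rraga. Rragb is among the 4 genes of this list counted as higher in Pkd1-/- cells.

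In the list of 17 upstream kinases and their regulators, 2 rose and 3 fell in Pkd1-/- and 2 rose and 4 fell in Pkd2-/- cells. These shares, 29.4% and 35.3%, were near the background of 27.1% in the first comparison and below that of 42.3% in the second. Prkaa2, the α2 catalytic subunit of the energy sensor AMPK, was at 485, 417, 448 and 570 in Wt, 68, 72, 67 and 76 in Pkd1-/-, and 487, 513, 463 and 582 in Pkd2-/- libraries. Only the Pkd1-/- libraries were low (log2 fold change -2.74, limma adjusted p = 4.59e-13; Pkd2-/- against Pkd1-/- 2.83), while the α1 subunit gene Prkaa1 had a mean of 3301 there. The insulin receptor substrates moved in different mutants, with Irs1 higher by 0.66 in Pkd1-/- and Irs2 higher by 0.58 in Pkd2-/- cells. Prkab2 (-0.45) and Prkag2 (-0.38), regulatory subunits of AMPK, fell in Pkd2-/- cells. Insr, the insulin receptor gene, fell by 0.31 in Pkd1-/- cells (adjusted p = 0.0198 by limma), a call lost without Wt replicate 3, Wt replicate 4 or Pkd1-/- replicate 1 (adjusted p from 0.0529 to 0.0709).

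**Figure D5:**
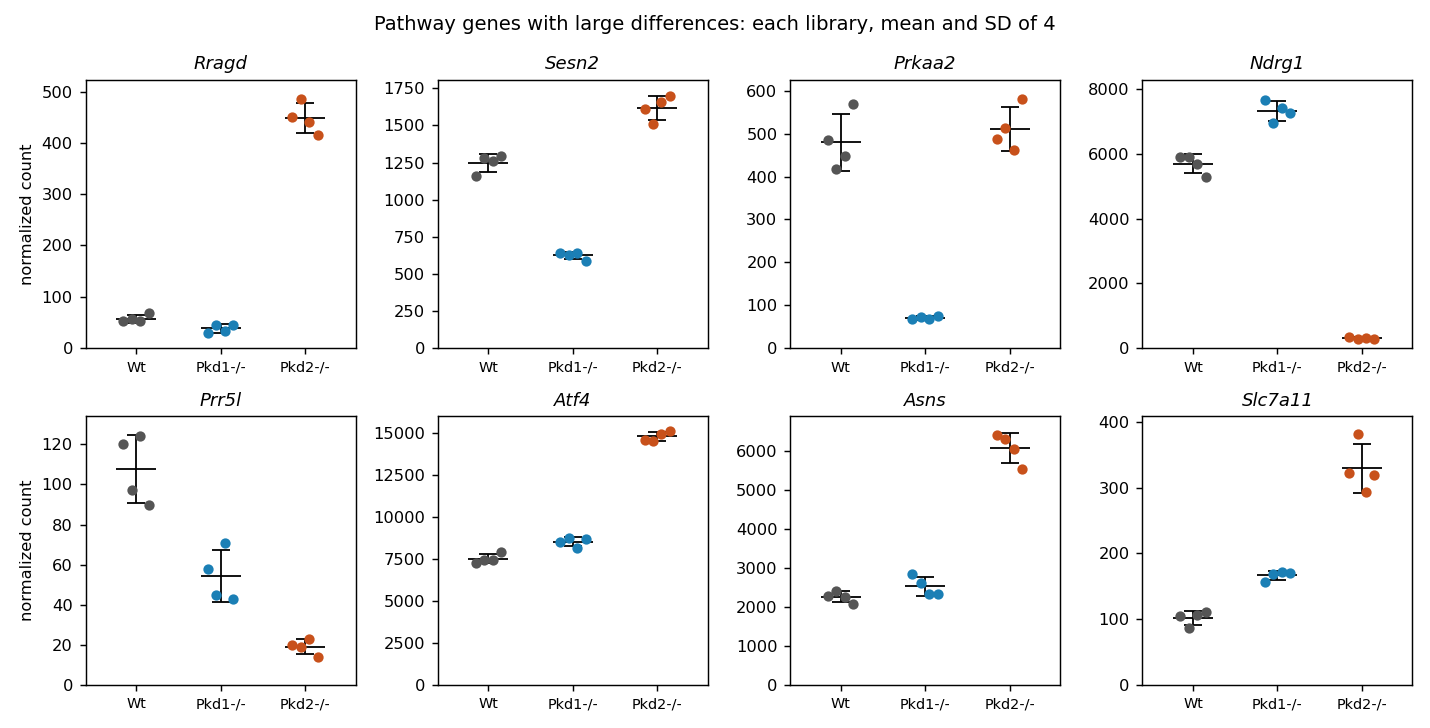
Normalized counts (vertical axes, from 0) of 8 further pathway genes in each library, with the mean and SD of 4 libraries per genotype (horizontal axes). Prkaa2 is low only in Pkd1-/- (67 to 76), Ndrg1 only in Pkd2-/- (275 to 345), and Rragd is high only in Pkd2-/- (415 to 485).

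Of 20 substrates and downstream effectors, 6 rose and 3 fell in Pkd1-/- cells (backgrounds 13.6% and 13.5%). In Pkd2-/- cells, 9 rose and 3 fell (backgrounds 20.0% and 22.3%). Ndrg1, whose product is phosphorylated by SGK1 below mTORC2, was at 5903, 5915, 5675 and 5295 in Wt, 7675, 6953, 7420 and 7247 in Pkd1-/-, and 345, 282, 313 and 275 in Pkd2-/- libraries. It fell by 4.23 in Pkd2-/- (limma adjusted p = 6.08e-19) and rose by 0.36 in Pkd1-/- cells on the log2 scale, where its 14 neighbours within 5 Mb had a median of 0.26. The translation repressors Eif4ebp1 (0.79) and Eif4ebp2 (0.54) and the mRNA-binding repressor Larp1 (0.68) rose in Pkd2-/- cells. Pdcd4, an inhibitor of translation initiation that S6 kinase marks for degradation, rose in both mutants (0.51 and 0.39). It lies on chromosome 19, where its neighbours within 5 Mb had medians of 0.19 in Pkd1-/- and 0.44 in Pkd2-/- cells. Sgk1 fell in Pkd1-/- cells (-0.63, adjusted p = 0.00314). Grb10, named after its values were seen, had at most 7 normalized counts in any library and 0 in every Pkd2-/- library. Despite this low level, it is among the 3 genes of this list counted as lower in Pkd2-/- cells.

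The last list held 17 transcripts known to respond to mTORC1 through SREBP, HIF-1α, ATF4 or PGC-1α. Of these, 9 rose and 2 fell in Pkd1-/- (backgrounds 13.6% and 13.5%) and 10 rose and 4 fell in Pkd2-/- cells (backgrounds 20.0% and 22.3%). Psat1 (1.75), Slc7a11 (1.68), Asns (1.43) and Mthfd2 (1.24) rose in Pkd2-/- cells by more than 1 on the log2 scale, as did 3.24% of all tested genes. These 4 genes of amino acid supply and one-carbon metabolism are known targets of ATF4, which also answers to stress pathways other than mTORC1. Atf4 was at 7292, 7436, 7458 and 7930 in Wt, 8506, 8777, 8189 and 8668 in Pkd1-/-, and 14582, 14566, 14978 and 15146 in Pkd2-/- libraries. All mutant libraries were above Wt, by 0.18 in Pkd1-/- and 0.98 in Pkd2-/- cells (limma adjusted p = 0.00264 and 9.30e-13). Srebf1, which controls lipid synthesis, rose by 0.38 and 0.39. Slc2a1, the glucose transporter GLUT1, fell by 0.90 and 0.35, in Pkd1-/- and Pkd2-/- cells in that order, and Ppargc1a, encoding PGC-1α, fell by 0.36 and 0.57. Psat1 is a gene of chromosome 19, with a median of 0.34 for its neighbours within 5 Mb in Pkd2-/- cells, and Asns lies on chromosome 6, with a median of -0.26.

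RefSeq windows were found for 15 of these 17 genes and searched on both strands for TGATGNAA, a form of the site that ATF4 binds with C/EBP factors. It was present in Asns and Slc7a11, in 3.97% of all RefSeq windows, and in none of the 9 windows of the TSC and mTOR set. The stretches around it are shown with the match in capitals, 30 bases each on the minus strand, chr6:7693214-7693243 for Asns and chr3:50443661-50443690 for Slc7a11.
Asns: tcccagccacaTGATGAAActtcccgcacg
Slc7a11: tctcatgtggcTGATGCAAacctggagaat
Slc7a11 carries a second match on the other strand in the same window. No match in a window says only that these letters are not in it.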

How the data were processed

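RNA of 12 mIMCD3 cultures (4 wild-type, 4 Pkd1-/-, 4 Pkd2-/-) had been sequenced. According to the submitters' processing notes and methods, reads were trimmed with Trim Galore, aligned with HISAT2 and counted per Ensembl gene with HTSeq. The deposited score values are normalized counts that the authors divided by DESeq2 size factors and rounded to whole numbers, so count models were not used here. Builds mm10 and mm9 are named in the notes, and the deletions and GENCODE M21 symbols, matched for 47223 of 47642 genes (419 without), are on GRCm38. All 12 sample columns were used and 0 were left out; 0 pairs of libraries were identical.

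Log2(normalized count + 1) of the 18552 genes averaging 1 or more was fitted in 1 limma model (version 3.58.1, R 4.3.3; lmFit, eBayes with trend) of all 12 libraries. P-values are two-sided and Benjamini-Hochberg adjusted over all tested genes in each comparison. The fold change on this scale understates changes of low genes. The fit was run on simulated independent counts with the same dispersion for all genes and no tilt over length. The real libraries differ in these respects, so that run does not check the calls given here. Summaries and figures used Python 3.11.15, pandas 2.3.3, scipy 1.17.1 and matplotlib 3.10.9. Exact permutation tests are two-sided. Reads per library were estimated from the step that 1 read is worth, and no counting intervals are given, because duplicates of 1 molecule cannot be recognised without molecular identifiers.

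Named genes were the 10 members, Pkd1, Pkd2 and tested genes up to 100 kb from the Pkd1 deletions, from each further list up to 6 genes with an adjusted p under 0.05 and a mean of at least 10, by the largest change against wild-type, and 3 genes of like pattern for each of 3 members; others in the text were named after their values were seen. The members, lists and tests were chosen with earlier results of these data known. A gene of the upstream kinase list is not reported here and was left out of the counts. The fit was repeated with pseudocounts of 0.5 and 5, without the filter and with one at 10, with a replicate block, a model of the compared genotypes alone, rescaling by upper quartile or median of ratios, robust eBayes, and each library left out. Removal of length and GC trends and the medians over chromosomes and neighbours were added after seeing the data.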

Additional observations from a re-analysis of the deposited data

Results flagged for a closer look

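In groups of 4 libraries, the gap of the highest or lowest library to the nearest other was compared with the range of the group by Dixon's criterion, which chance exceeds in about 5% of groups. Of 120 groups screened for the 10 genes and the named pathway genes, 3 exceeded it. Ddit4 was lowest in Wt replicate 1, at 2018 normalized counts. In Pkd1-/- cells, Castor1 was highest in replicate 1 at 270 and Pdcd4 was lowest in replicate 4 at 6759.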

How the results depend on the processing

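Of 660 refits of single members, 630 stayed on the same side of the threshold, 12 gained a call and 18 lost one. Tsc1, Deptor and Ddit4 in Pkd2-/- and Rheb in Pkd1-/- cells passed against wild-type under every alternative tried. The number of members called in Pkd1-/- against wild-type was 2 with a minimum mean of 10, 2 with upper-quartile rescaling, 3 with length and GC trends removed (Rheb, Rictor and Akt1s1), and 1 to 2 when single libraries were left out; in Pkd2-/- against wild-type it was 3 to 6 when single libraries were left out. Genes past both thresholds in Pkd1-/- cells numbered 739 with a minimum mean of 10, against 1158, since fewer genes were tested. Deviations of same-numbered libraries correlated over 0.1 in 5 of 12 pairs (r from -0.16 to 0.39), among them all 3 pairs of replicate 4 (0.19, 0.39 and 0.32), the only libraries that correlated best with their own number. As this did not hold for every pair, the numbers were not used to pair libraries; with the replicate block, 1, 6 and 6 members and 5322, 8048 and 8782 genes passed in Pkd1-/- and Pkd2-/- against wild-type and between the mutants, against 1, 5 and 6 members and 5020, 7852 and 8588 genes. Rictor in Pkd2-/- cells was the member gained (0.22, adjusted p = 0.0319 by limma); it also passed without Pkd2-/- replicate 3 (limma adjusted p = 0.0399). Ddit4 in Pkd1-/- cells passed with a minimum mean of 10 (limma adjusted p = 0.0444) and with upper-quartile rescaling (0.034), which also gained Akt1s1 in Pkd2-/- cells (0.026) and lost Mtor there (0.0955) and Rptor between the mutants (0.247). Between the mutants, removal of length and GC trends lost Rptor and gained Tsc2 (-0.09, limma adjusted p = 0.0458) and Ddit4 (0.21, 0.000435). The cause of these differences was not tested. With 4 dishes of 1 clone each, depth did not limit the members, all above 300 normalized counts, and differences between clones remain unmeasured.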
